A study of Mus musculus with 20 samples.

Results

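The mitochondrial respiratory chain and ATP synthase genes were examined in white adipose tissue (WAT) and liver of mice without functional RORα. Genes were taken by name from the scanner annotation: names that begin with Nduf (complex I), Uqcr (complex III), Atp5 (complex V, the ATP synthase) or Cox followed by 4 to 8 (complex IV), together with Sdha, Sdhb, Sdhc and Sdhd (complex II), Cyc1 and Cycs. This named 117 of the 41174 probes of the array, for 84 genes, and no difference between groups entered the rule. A probe counted as measured in a tissue when the scanner software put its signal well above background on 4 or more of that tissue's 10 arrays. All 113 probes that were measured passed in WAT and 110 passed in liver, which gave 84 genes in WAT and 82 in liver, where Cox4i2 and Cox8c were not well above background. The 4 probes that failed in both tissues were second probes of Ndufab1, Ndufs1, Ndufs4 and Sdhc. Of the 113 probes, 110 were well above background on all 20 arrays and 0 were saturated. The rule also took in 3 genes that are not subunits, namely Cox4nb (a subunit of a membrane protein complex of the endoplasmic reticulum), the complex I assembly factor Ndufaf1, and Atp5s, an ATP synthase related gene. The remaining 81 are called subunit genes here.

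The mice were male C57BL/6 animals, 5 months old, all fed a diet with 35% fat for 6 weeks. They were either homozygous for the staggerer mutation (RORasg/sg, written sg/sg), a natural deletion in the Rora gene in every tissue, or wild type (WT). Each of the 4 groups (sg/sg WAT, WT WAT, sg/sg liver, WT liver) had 5 arrays, per the series' design text from 5 mice of each genotype. No animals on another diet were compared, so the high fat diet is shared by all groups, and the fat depot is not stated.

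The respiratory chain passes electrons from NADH (complex I) and succinate (complex II) through coenzyme Q to complex III, cytochrome c and complex IV, where oxygen is reduced. Complexes I, III and IV pump protons across the inner mitochondrial membrane, and the ATP synthase uses the gradient to make ATP. Except for a core set of subunits encoded by mitochondrial DNA, which are outside these gene names, the subunits are nuclear genes. Complex II is also an enzyme of the citric acid cycle. Several complex IV subunits exist as isoforms, a widely expressed form and a form that is typical of heart and skeletal muscle, some of which are also abundant in brown fat. In adipocytes, PGC-1 coactivators are known to promote transcription of many of these genes, and white fat of obese animals is known to carry less mitochondrial transcript than lean fat.

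Levels are given as log2 of the processed intensity relative to the 75th percentile of the same array, so that 0 is the level of a probe at that percentile. They can be compared between arrays for a given probe and not between probes. Rora was lower in sg/sg mice with each of its 3 probes, by 6.59- to 6.74-fold in WAT and by 7.28- and 7.36-fold with 2 of them in liver. The third was not well above background on any sg/sg liver array and gives no exact fold there. The arrays lay on 3 slides per tissue. In WAT each slide held both genotypes, whereas in liver only the second slide did, with WT replicate 5 beside sg/sg replicates 1 to 3. WT liver replicates 1 to 4 filled the first slide, and sg/sg liver replicates 4 and 5 lay on slide 3. The array of sg/sg WAT replicate 4 stood apart. It had the lowest 75th percentile of intensity of the WAT arrays (1352, against 1653 to 2598 on the other 9) and the lowest share of spots well above background (72.5%, against 75.7% to 81.5%). For 4003 genes with measured WAT probes at least 500 bases apart, the probe nearer the 3′ end was set against the probe nearer the 5′ end, each relative to its WT mean. The median difference was 0.46 on that array and between -0.05 and 0.06 on the other 19 arrays of both tissues, where the liver comparison had 3196 genes. Most counts and medians in WAT are given with and without this array. The same holds for the fold changes of subunit genes that passed there, except for genes that are only named. The part of RNA quality in them was not tested.

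**Figure D1:**
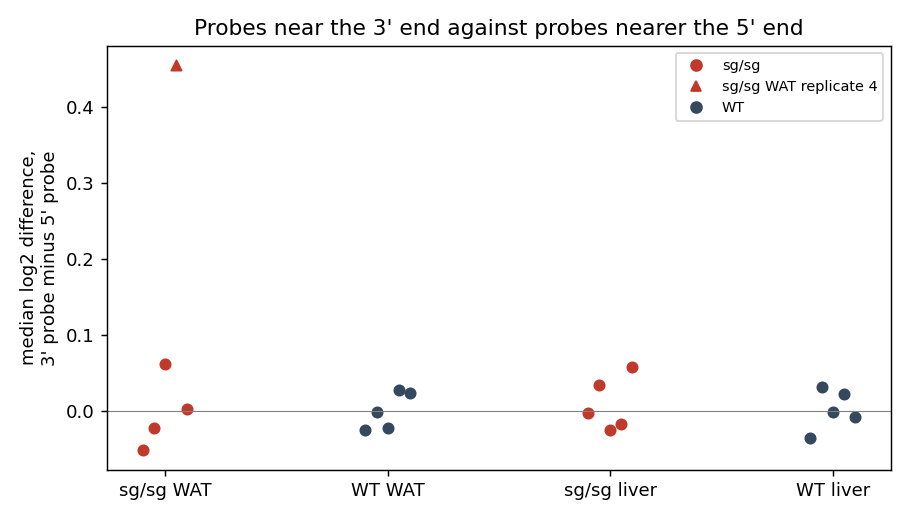
Median over genes of the log2 difference between the 3′ and the 5′ probe (vertical axis, each probe relative to its WT mean), per array, for sg/sg and WT mice in WAT and liver. The array of sg/sg WAT replicate 4 (triangle) lies at 0.46 and the other 19 between -0.05 and 0.06.

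In WAT the median fold change of the respiratory chain genes lay above that of all probes, whereas most of the genes did not pass on their own. By gene, counted at its brightest probe, 19 of 84 were higher, 1 was lower and 64 did not pass (limma, sg/sg over WT, n = 5 each, Benjamini-Hochberg adjustment over all 32315 probes tested, threshold 0.05). Over probes, 23 of 113 (20.4%) were higher and 1 was lower, whereas of all probes tested 12.8% were higher and 9.14% lower (21.9% either way). The median log2 fold change of the 113 probes was 0.33, or 1.26-fold, against 0.08 over all probes tested. Of the 113 probes, 104 were above 0 (92.0%), as were 58.3% of all probes. The 2568 WAT probes with a mean level over 3, of which 80 belong to these genes, had a median of 0.08. Probes were not matched on level, and the part of brightness in the shift was not tested. The genotypes did not overlap for 35 probes that were higher in sg/sg mice and 1 that was lower, 31.0% and 0.885% of the probes, against 12.1% and 8.71% of all probes. Fewer cells of a type and less RNA per cell cannot be told apart in these whole-tissue samples.

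Per array, the median difference of the 81 subunit genes from their WT mean was 0.27, 0.29, 0.20, 0.95 and 0.07 in sg/sg WAT replicates 1 to 5, against 0.06, -0.08, 0.10, 0.01 and -0.08 in WT WAT replicates 1 to 5. Replicate 4 of the sg/sg mice was by far the highest, replicates 1 to 3 lay above every WT array, and replicate 5 lay within the WT range. Without sg/sg replicate 4, 38 probes were higher and 1 lower, while 18.6% of all probes were then higher and 12.5% lower. The median fold change without it was smaller, 0.20. By gene the count without it was 30 higher and 1 lower of 84, with a median of 0.21 against 0.34 with all arrays. Within slides 1, 2 and 3, which hold 2, 2 and 1 sg/sg arrays beside 2, 1 and 2 WT arrays, the median was 0.51, 0.22 and 0.30, with 103, 100 and 99 of 113 probes above 0. No probe passed within a slide in limma (6, 4 and 1 had an unadjusted p under 0.05), and none of the 32315 probes tested did either. With slide as a fixed block 23 were higher (20.4%, against 11.1% of all probes) and 1 lower. The count of higher probes depended on single arrays: it was 12, 11, 12, 38 and 25 without sg/sg replicates 1 to 5, and 12, 9, 10, 9 and 9 without WT replicates 1 to 5. As shares these were 10.6, 9.73, 10.6, 33.6 and 22.1% without sg/sg replicates 1 to 5, where 9.07, 10.1, 8.84, 18.6 and 11.3% of all probes were higher. Without WT replicates 1 to 5 they were 10.6, 7.96, 8.85, 7.96 and 7.96%, where 8.67, 10.9, 9.26, 9.48 and 10.02% of all probes were higher. The share was thus below that of all probes in 5 of these 10 fits, those without sg/sg replicate 2 or WT replicate 2, 3, 4 or 5. With arrays centred on their median in place of the 75th percentile the count was 6 (5.31%, against 9.19% of all probes), also below. The median fold change was 0.34 with that centring and ran from 0.20 to 0.39 over the fits without 1 array, while the median of all probes ran from 0.05 to 0.09 over those fits.

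**Figure D2:**
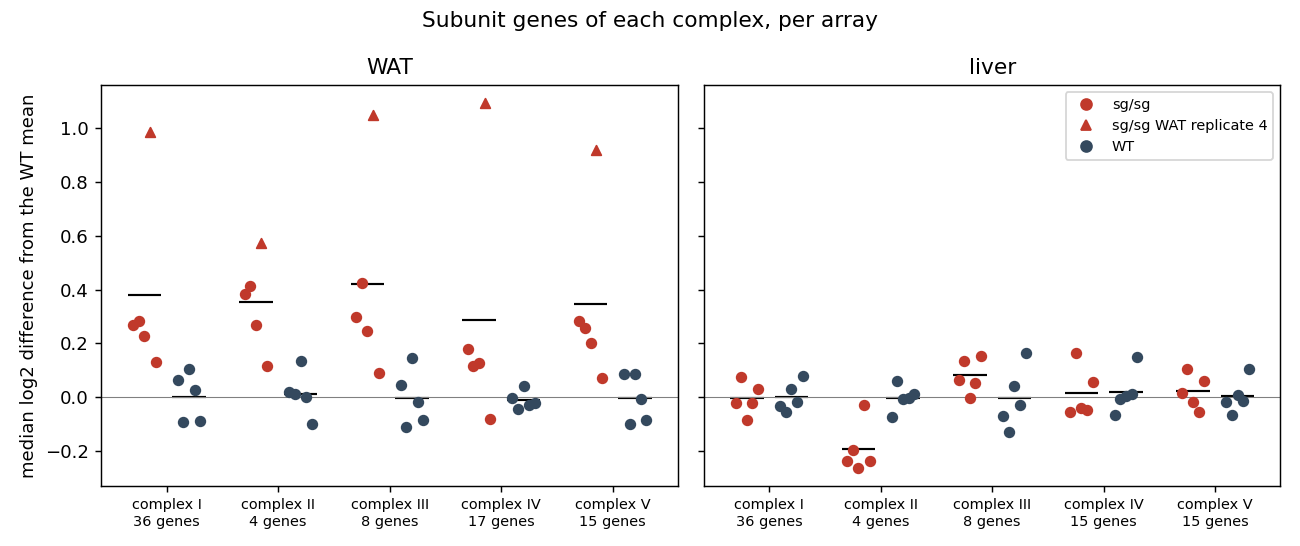
Median log2 difference of the subunit genes of complexes I to V from their WT mean (vertical axis), with 1 point per array for sg/sg and WT mice in WAT (left) and liver (right) and a bar at the mean of the 5 arrays. In WAT the array of sg/sg replicate 4 (triangle) is the highest of every complex. In liver the sg/sg and WT arrays overlap for complexes I, III, IV and V, and for complex II 4 of the 5 sg/sg arrays lie below all WT arrays.

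Of the 36 complex I genes 10 were higher and 0 lower, with a median log2 fold change of 0.36 (0.23 without sg/sg replicate 4). Complex II had 2 of 4 genes higher (median 0.32, or 0.27 without that array) and complex III 2 of 8 (0.41, or 0.26). Complex IV had 4 of 17 genes higher and 1 lower (0.26, or 0.08), and the ATP synthase had 1 of 15 higher (0.34, or 0.20). Cytochrome c (Cycs), the only member of its group, did not pass (0.08, and -0.14 without that array). In complex I the lowest value was -0.05 (Ndufb5) and the highest 0.64 (Ndufb9). Of all WAT probes tested, 12.8% were higher and 9.14% lower, or 14.4% and 9.45% with 1 probe per gene. The counts of single complexes were not tested against these shares, and the differences between complexes were not tested.

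**Figure D3:**
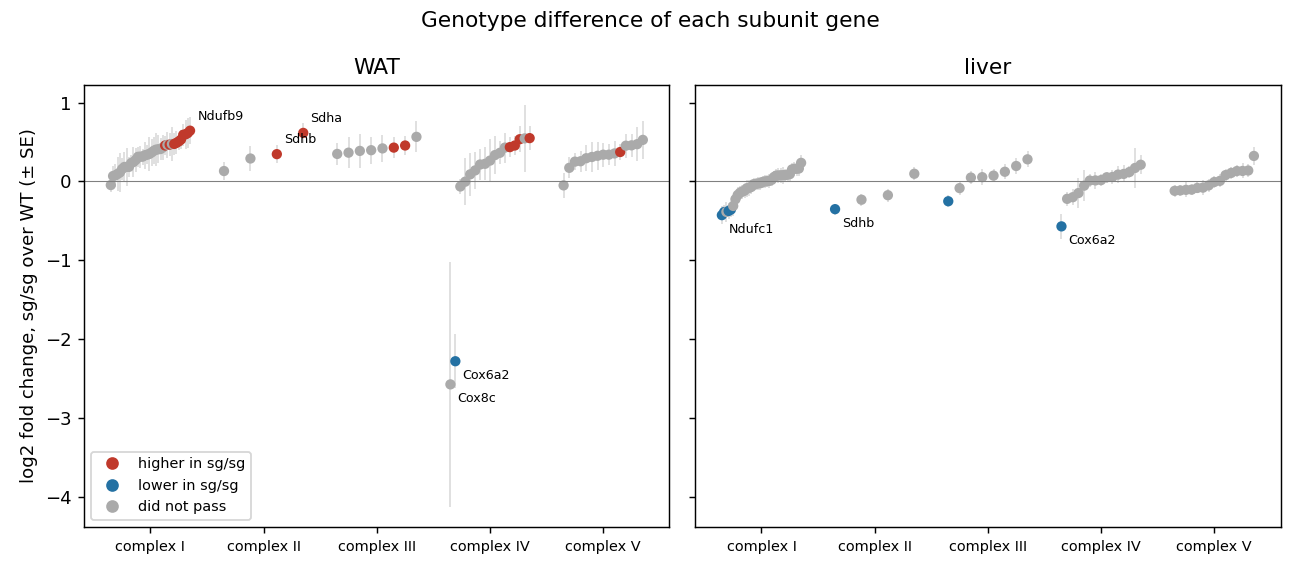
Log2 fold change of sg/sg over WT with its standard error (vertical axis) for each subunit gene, ordered by value within complexes I to V, in WAT (left) and liver (right). Colours mark genes higher, lower or not passing in limma. In WAT 10 complex I genes pass as higher and Cox6a2 as lower, and in liver 7 genes pass as lower.

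In complex I, the genes with the smallest p were subunits of its NADH-oxidising and quinone-reducing arm as well as of its membrane arm. Ndufa9, an accessory subunit that helps to join the arms, was 4.68, 4.94, 4.75, 5.04 and 4.60 in sg/sg WAT, against 4.33, 4.19, 4.41, 4.31 and 4.23 in WT WAT. Every sg/sg array lay above every WT array, and the log2 fold change was 0.51 ± 0.11 (SE, limma adjusted p = 0.00895). Ndufv1, which carries the NADH-binding site, was 4.86, 4.70, 4.76, 5.21 and 4.63 in sg/sg WAT, against 4.38, 4.18, 4.39, 4.27 and 4.29 in WT WAT. The groups did not overlap here either, and the log2 fold change was 0.53 ± 0.12 (SE, limma adjusted p = 0.0120). Ndufs7, which holds the iron-sulfur cluster next to the quinone, was 4.45, 4.32, 4.35, 4.95 and 4.29 in sg/sg WAT, against 3.98, 3.94, 3.91, 3.89 and 3.67 in WT WAT, with a log2 fold change of 0.59 ± 0.14 (SE, limma adjusted p = 0.0135). WT replicate 5 was the lowest array and sg/sg replicate 4 the highest.

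Of the membrane arm, Ndufb11 was 5.61, 5.76, 5.73, 6.14 and 5.54 in sg/sg WAT, against 5.36, 5.22, 5.35, 5.33 and 5.24 in WT WAT. Its log2 fold change was 0.46 ± 0.12 (SE, limma adjusted p = 0.0218), without overlap between the genotypes. Ndufb9 had the largest change of the complex, with 6.16, 6.34, 6.13, 6.97 and 6.05 in sg/sg WAT, against 5.82, 5.47, 5.81, 5.67 and 5.66 in WT WAT. Its log2 fold change was 0.64 ± 0.17 (SE, limma adjusted p = 0.0252), and sg/sg replicate 4 was the highest array. Without that array Ndufb9 was at 0.48 (adjusted p = 0.00690), Ndufb11 at 0.36 (adjusted p = 0.00725), Ndufs7 at 0.47 (adjusted p = 0.00377), Ndufv1 at 0.44 (adjusted p = 0.00419) and Ndufa9 at 0.45 (adjusted p = 0.00641), so that all 5 still passed. Within each slide all 5 had differences above 0, for Ndufa9 of 0.62, 0.45 and 0.43 on slides 1, 2 and 3 and for Ndufb9 of 0.84, 0.43 and 0.59. The other complex I genes called higher were Ndufa5, Ndufa7, Ndufb10, Ndufb8 and Ndufs1.

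Complex II, which oxidises succinate, was measured through all 4 genes. Sdha, its flavoprotein subunit, was read by 2 probes. With the brighter probe, on chr13:71255611-71255670 of build mm7, Sdha was 3.32, 3.32, 3.14, 3.46 and 2.97 in sg/sg WAT, against 2.63, 2.35, 2.82, 2.68 and 2.67 in WT WAT. The groups did not overlap, and Sdha had the smallest p of all genes counted higher, with a log2 fold change of 0.62 ± 0.12 (SE, limma adjusted p = 0.00709) and a fold of 1.53. The second probe, on chr13:71261221-71261280, lies nearer the 5′ end. It gave 2.82, 2.81, 2.59, 2.11 and 2.45 in sg/sg WAT, against 2.35, 2.17, 2.36, 2.23 and 2.19 in WT WAT. Here sg/sg replicate 4 was the lowest array of both genotypes while the other 4 sg/sg arrays were above every WT array. The second probe did not pass with all arrays, at 0.30 ± 0.14 (SE, limma adjusted p = 0.163), and passed without sg/sg replicate 4, at 0.41 (adjusted p = 0.0141). On that array the 3′ probe of Sdha exceeded the 5′ probe by 0.99 relative to the WT means, against 0.13 to 0.18 on the other sg/sg arrays.

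Sdhb, the iron-sulfur subunit, was 4.44, 4.51, 4.34, 4.09 and 4.12 in sg/sg WAT, against 3.99, 3.97, 4.08, 3.90 and 3.82 in WT WAT. The ranges did not overlap, although sg/sg replicates 4 and 5 were close to the highest WT array, and the log2 fold change was 0.35 ± 0.11 (SE, limma adjusted p = 0.0475). Without sg/sg replicate 4 it was 0.40 (adjusted p = 0.0147). The membrane anchors Sdhc (0.13) and Sdhd (0.29) did not pass (limma adjusted p = 0.434 and 0.220).

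In complex III, the core subunit Uqcrc2 was 4.74, 4.92, 4.86, 5.30 and 4.54 in sg/sg WAT, against 4.43, 4.44, 4.56, 4.44 and 4.34 in WT WAT. All sg/sg arrays except replicate 5, which lay just under the highest WT array, were above the WT arrays, and the log2 fold change was 0.43 ± 0.14 (SE, limma adjusted p = 0.0462). The Rieske iron-sulfur protein Uqcrfs1 also passed, at 0.46 ± 0.12 (SE, limma adjusted p = 0.0256). Without sg/sg replicate 4 Uqcrc2 was at 0.32 (adjusted p = 0.0284) and Uqcrfs1 at 0.37 (adjusted p = 0.0153). All 8 complex III genes had values above 0, between 0.35 (Cyc1, cytochrome c1) and 0.57 (listed as Uqcr, now Uqcr11). In the ATP synthase, Atp5b, the catalytic β subunit, was the only gene to pass at its brightest probe, with 6.83, 6.78, 6.75, 7.16 and 6.73 in sg/sg WAT, against 6.56, 6.42, 6.48, 6.44 and 6.49 in WT WAT. Its log2 fold change was 0.37 ± 0.10 (SE, limma adjusted p = 0.0270), or 0.30 (adjusted p = 0.00835) without sg/sg replicate 4. A middle and a 5′ probe of Atp5b gave 0.23 ± 0.11 (SE, limma adjusted p = 0.153) and 0.09 ± 0.17 (SE, limma adjusted p = 0.745), and on both of these sg/sg replicate 4 lay below the other sg/sg arrays. Atp5a1, the α subunit, passed with its dimmer probe at 0.34 ± 0.11 (SE, limma adjusted p = 0.0457), or 0.27 (adjusted p = 0.0348) without that array, and missed the threshold with the brighter one, at 0.25 ± 0.11 (SE, limma adjusted p = 0.126). Atp5d had the highest ATP synthase value and did not pass, at 0.53 ± 0.24 (SE, limma adjusted p = 0.140). The 3 genes for subunit c of the rotor did not pass: Atp5g1 at -0.05, Atp5g2 at 0.31 and Atp5g3 at 0.34 (adjusted p = 0.864, 0.289 and 0.136).

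Among cytochrome oxidase genes, the muscle-type isoform Cox6a2 was the one called lower. On chr7:124302204-124302263 of build mm7, Cox6a2 was -3.52, -3.81, -3.58, -3.78 and -3.34 in sg/sg WAT, against -1.29, 0.07, -1.63, -1.75 and -2.03 in WT WAT. All sg/sg arrays lay below all WT arrays, and among the WT arrays replicate 2 was the highest. The log2 fold change was -2.28 ± 0.34 (SE, limma adjusted p = 0.00200), 4.86-fold lower in sg/sg mice. It was -2.24 (adjusted p = 0.00378) without sg/sg replicate 4, and -2.34, -1.43 and -2.68 within slides 1, 2 and 3. The widely expressed counterpart Cox6a1 was 7.45, 7.61, 7.41, 8.07 and 7.39 in sg/sg WAT, against 7.40, 7.0, 7.25, 7.18 and 7.27 in WT WAT. These ranges overlapped slightly, since sg/sg replicate 5 lay just under the highest WT array, and Cox6a1 did not pass, at 0.36 ± 0.14 (SE, limma adjusted p = 0.0992).

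The other isoforms typical of muscle and brown fat did not follow Cox6a2. Cox8b was 1.84, 2.06, 2.0, 4.10 and 1.57 in sg/sg WAT, against 1.76, 1.75, 2.17, 1.39 and 1.76 in WT WAT. Replicate 4 of the sg/sg mice was far above all other arrays, the other 4 lay within the WT range, and the log2 fold change was 0.55 ± 0.42 (SE, limma adjusted p = 0.398), or 0.10 (adjusted p = 0.679) without that array. Cox7a1 was 1.78, 1.53, 1.31, 2.92 and 1.30 in sg/sg WAT, against 2.06, 1.48, 2.09, 1.70 and 1.52 in WT WAT. It showed the same single high array, with a log2 fold change of -0.00 ± 0.30 (SE, limma adjusted p = 0.996), or -0.29 (adjusted p = 0.222) without it. Their widely expressed counterparts were Cox8a, which passed, and Cox7a2, which did not. Cox8a was 6.66, 6.76, 6.64, 7.45 and 6.60 in sg/sg WAT, against 6.45, 6.12, 6.39, 6.24 and 6.22 in WT WAT. All sg/sg arrays were above all WT arrays, with a log2 fold change of 0.54 ± 0.17 (SE, limma adjusted p = 0.0442), or 0.38 (adjusted p = 0.0112) without sg/sg replicate 4. Cox7a2 was at 0.22 ± 0.21 (SE, limma adjusted p = 0.491).

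Cox4i1, the widely expressed form of subunit 4, was 6.47, 6.53, 6.39, 6.88 and 6.30 in sg/sg WAT, against 6.27, 6.02, 6.14, 5.91 and 6.06 in WT WAT. Its log2 fold change was 0.44 ± 0.12 (SE, limma adjusted p = 0.0317), or 0.34 (adjusted p = 0.0197) without sg/sg replicate 4. Cox4i2, known as the lung form, was dim, with levels of -7.28 to -5.88 in sg/sg WAT and -7.35 to -6.35 in WT WAT, and did not pass. Cox6b2, known as the testis form of subunit 6b, was -1.18, -1.42, -1.29, -1.44 and -1.33 in sg/sg WAT, against -1.97, -1.45, -2.05, -1.76 and -1.71 in WT WAT. WT replicate 2 lay just under the lowest sg/sg array and the other WT arrays well below, and the log2 fold change was 0.46 ± 0.13 (SE, limma adjusted p = 0.0271), or 0.48 (adjusted p = 0.0200) without sg/sg replicate 4. Its widely expressed counterpart Cox6b1 did not pass, at 0.14 ± 0.23 (SE, limma adjusted p = 0.715). Cox8c, another testis form, was well above background on 4 WAT arrays only, 3 of WT and 1 of sg/sg mice, and did not pass, at -2.57 ± 1.55 (SE, limma adjusted p = 0.271). Cox6c passed at 0.55 ± 0.15 (SE, limma adjusted p = 0.0285) and was at 0.40 (adjusted p = 0.00416) without that array. Ndufa4, named as a complex I gene and known to bind complex IV, did not pass, at 0.41 ± 0.18 (SE, limma adjusted p = 0.134).

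**Figure D4:**
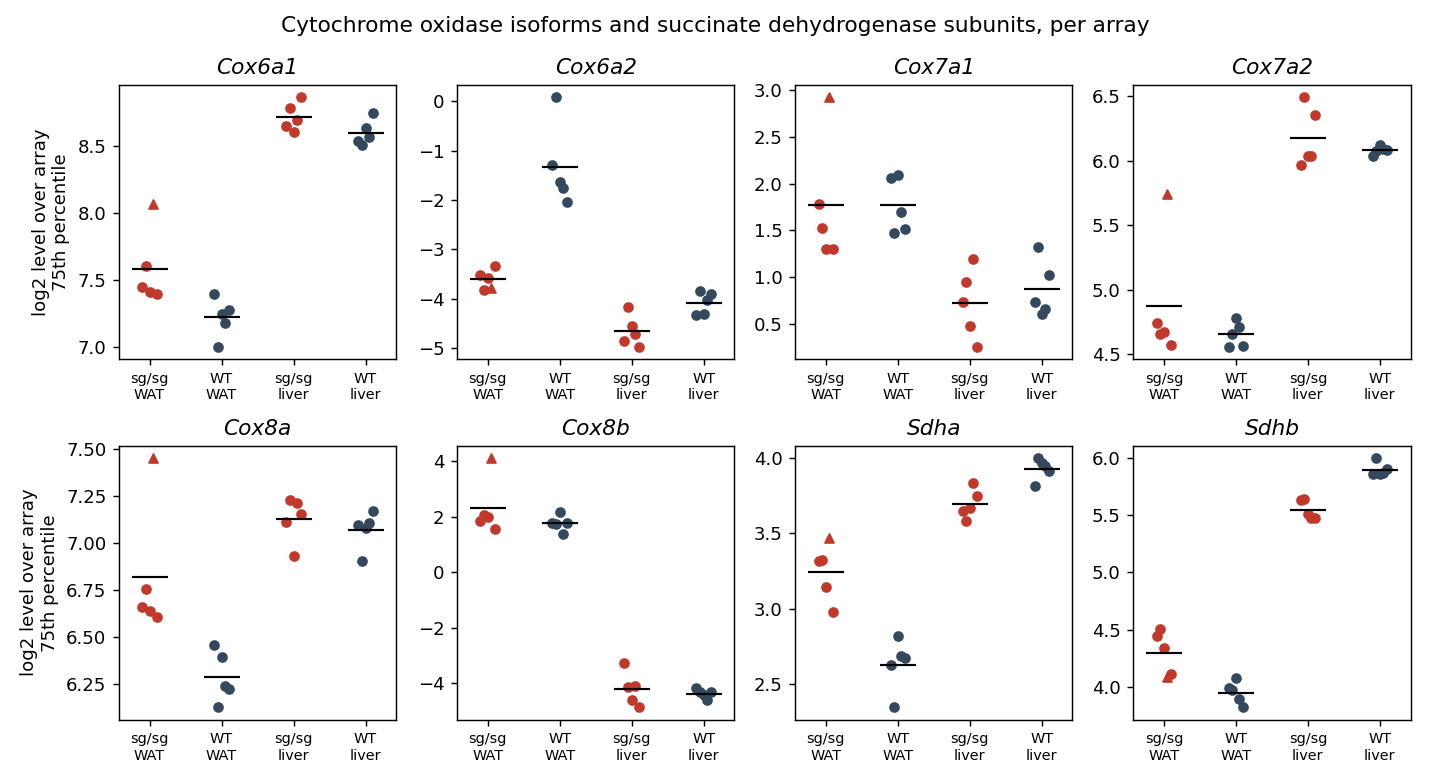
Log2 level relative to the 75th percentile of the array (vertical axis, a separate scale for each gene) of 6 cytochrome oxidase isoforms and of Sdha and Sdhb, with 1 point per array and a bar at the group mean, for sg/sg and WT mice in WAT and liver. Cox6a2 lies between -3.81 and -3.34 in sg/sg WAT and between -2.03 and 0.07 in WT WAT, and the triangle marks sg/sg WAT replicate 4.

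The probes of Atp5f1, Uqcrq and Ndufb8 differed in their calls. Atp5f1 (now Atp5pb), a subunit of the stator stalk, had a probe on chr3:105777016-105777075 of build mm7 with -4.64, -4.46, -4.71, -4.13 and -4.99 in sg/sg WAT, against -5.80, -5.72, -5.84, -5.58 and -5.82 in WT WAT. The groups were well apart, and the log2 fold change was 1.17 ± 0.15 (SE, limma adjusted p = 0.00120), or 1.05 (adjusted p = 8.62e-04) without sg/sg replicate 4. Its bright probe, on chr3:105761241-105761300, was at 0.17 ± 0.13 (SE, limma adjusted p = 0.395), and another probe, on chr3:105772410-105774244, at -0.01 ± 0.08 (SE, limma adjusted p = 0.975). Uqcrq, a small subunit of complex III, had a dim probe with -3.25, -3.31, -3.29, -2.86 and -3.44 in sg/sg WAT, against -4.15, -4.06, -3.88, -3.91 and -4.00 in WT WAT. That probe passed at 0.77 ± 0.12 (SE, limma adjusted p = 0.00229) and was at 0.68 (adjusted p = 0.00114) without that array, while the bright probe did not, at 0.39 ± 0.21 (SE, limma adjusted p = 0.225). No annotation of build mm7 was used here, so which transcript a dim probe reads is not stated. Ndufb8 passed with its bright probe, at 0.49 ± 0.14 (SE, limma adjusted p = 0.0359) with all arrays and 0.37 (adjusted p = 0.0165) without sg/sg replicate 4, and not with its dim one, at -0.03 ± 0.11 (SE, limma adjusted p = 0.897).

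In liver the same genes showed no shared shift in the fit without slide. The median log2 fold change of the 110 probes was -0.00 (0.04 over all 24675 probes tested), and 55 of 110 were above 0. By gene 0 of 82 were higher and 7 were lower, and by probe 1 was higher (0.909%) and 11 lower (10%). Of all liver probes tested, 8.10% were higher and 6.49% lower (14.6% either way). At the bright probes, limma had 16 of 82 genes with an unadjusted p under 0.05 in a fit of 1 probe per gene, of which 7 passed, all lower. The genotypes did not overlap for 3 probes that were higher and 10 that were lower, 2.73% and 9.09%, against 6.62% and 5.56% of all probes. These counts rest on groups that lie largely on different slides. With slide as a fixed block, 0 of the 110 probes passed in limma, and 3 had an unadjusted p under 0.05. The median was then -0.10, with 20 of 110 above 0, and both values were the same within slide 2. Over all liver probes the median was 0.03 in each of these fits. Slide 2 holds a single WT array. With slide as a random block, 6 were lower and 1 was higher. Without 1 array at a time, 1 to 10 were lower, the fewest without WT replicate 4.

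The 7 liver genes that were lower came from complexes I to IV. Sdhb was 5.63, 5.64, 5.51, 5.47 and 5.47 in sg/sg liver, against 5.86, 6.00, 5.86, 5.87 and 5.90 in WT liver. The groups did not overlap, and the log2 fold change was -0.35 ± 0.07 (SE, limma adjusted p = 0.0158), or -0.30 within slide 2. Ndufs4, an accessory complex I subunit, was 5.16, 5.36, 5.07, 5.09 and 5.28 in sg/sg liver, against 5.61, 5.56, 5.71, 5.63 and 5.40 in WT liver. WT replicate 5 was the lowest of the WT arrays and just above the highest sg/sg array, and the log2 fold change was -0.39 ± 0.09 (SE, limma adjusted p = 0.0212), or -0.20 within slide 2. Ndufv2, an iron-sulfur subunit of the NADH-oxidising arm, was 3.86, 4.14, 3.97, 4.02 and 3.90 in sg/sg liver, against 4.48, 4.36, 4.44, 4.42 and 4.06 in WT liver. WT replicate 5 lay among the sg/sg arrays, with a log2 fold change of -0.37 ± 0.10 (SE, limma adjusted p = 0.0310) over all arrays and -0.07 within slide 2.

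Ndufs6 was 5.45, 5.65, 5.54, 5.33 and 5.59 in sg/sg liver, against 5.86, 6.00, 5.86, 5.94 and 5.69 in WT liver. Its log2 fold change was -0.36 ± 0.09 (SE, limma adjusted p = 0.0278), or -0.14 within slide 2. The other Ndufs6 probes gave -0.23 ± 0.08 (SE, limma adjusted p = 0.0825) and -0.07 ± 0.11 (SE, limma adjusted p = 0.663). Ndufc1, a membrane arm subunit, passed with both its probes, at -0.43 ± 0.12 (SE, limma adjusted p = 0.0374) and -0.42 ± 0.09 (SE, limma adjusted p = 0.0210), and was -0.18 with the brighter probe within slide 2. Uqcrc2 was at -0.25 ± 0.07 (SE, limma adjusted p = 0.0443) and Cox6a2, dim in liver with levels of -4.96 to -4.17 in sg/sg mice and -4.33 to -3.85 in WT mice, at -0.57 ± 0.16 (SE, limma adjusted p = 0.0386). Within slide 2 Cox6a2 was -0.62. The Sdha probe nearer the 5′ end was lower, at -0.28 ± 0.07 (SE, limma adjusted p = 0.0248), without overlap, and the bright Sdha probe missed the threshold, at -0.23 ± 0.08 (SE, limma adjusted p = 0.0625). Of the second probes, one of Atp5f1, at -0.37 ± 0.10 (SE, limma adjusted p = 0.0310), and one of Cycs, at -0.36 ± 0.10 (SE, limma adjusted p = 0.0389), were lower as well. For this Cycs probe, WT replicate 5 had 3.76, amid the sg/sg values of 3.55 to 3.79, while WT replicates 1 to 4 had 3.99 to 4.28. The probe that was higher in liver was the dim Ndufb8 probe, at 0.47 ± 0.10 (SE, limma adjusted p = 0.0193).

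The genotype difference itself differed between tissues for a part of the genes. In the fit to all 20 arrays, the interaction term, the WAT difference minus the liver difference, was above 0 and passed for 23 of 113 probes (20.4%) and was below 0 for 2 (1.77%). Of all 32644 probes, 8.04% passed above 0 and 8.33% below (16.4% in all). The median over the 113 probes was 0.36, against 0.02 over all probes. With slide as a fixed block 2 passed above 0 (1.77%, against 1.41% of all probes) and 0 below, out of 38 with an unadjusted p under 0.05 in limma. Without sg/sg WAT replicate 4, 33 passed above 0 (29.2%, against 10.3% of all probes) and 3 below, and the median was 0.21. Sdha had one of the largest terms, 0.85 ± 0.14 (SE, limma adjusted p = 6.12e-04). Its bright probe was higher in sg/sg WAT by 0.62, whereas in liver its difference was -0.23. Sdhb, at 0.70 ± 0.13 (SE, limma adjusted p = 0.00112), and Uqcrc2, at 0.68 ± 0.15 (SE, limma adjusted p = 0.00526), passed in opposite directions in WAT and liver. These single-tissue calls depended on the processing. Over alternative settings, Uqcrc2 lost its call in 14 of 24 in WAT and 16 of 22 in liver. Sdhb lost its call in 17 of 24 and 3 of 22. Ndufv2 had 0.61 ± 0.14 (SE, limma adjusted p = 0.00587), and the dim Atp5f1 probe had the largest term, 1.19 ± 0.20 (SE, limma adjusted p = 5.62e-04). The terms below 0 were those of Cox6a2, -1.71 ± 0.40 (SE, limma adjusted p = 0.00670), and of the dim Ndufb8 probe, -0.49 ± 0.15 (SE, limma adjusted p = 0.0318).

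Between WAT and liver of WT mice, the isoforms typical of muscle and brown fat stood out among subunits that were mostly less abundant in WAT. The tissues were hybridised on different slides, so tissue and slide cannot be told apart. Relative to the 75th percentile, 95 of 113 probes were lower in WT WAT than in WT liver and 9 were higher, while 40.2% of all probes were lower and 34.2% higher (74.4% in all). The size of this depends on the scaling: with quantile normalization 56 were lower (49.6%, against 35.5% of all probes) and 25 higher, and the median moved to -0.29 from -1.31, while the median of all probes moved to 0.08 from -0.13. Cox8b was at 1.76, 1.75, 2.17, 1.39 and 1.76 in WT WAT, against -4.18, -4.32, -4.41, -4.61 and -4.30 in WT liver, a log2 difference of 6.13 ± 0.37 (SE, limma adjusted p = 1.50e-11). Cox6a2 was higher in WAT by 2.76 ± 0.28 (SE, limma adjusted p = 3.79e-08), Cox7a1 by 0.90 ± 0.26 (SE, limma adjusted p = 0.00497) and Cox6b2 by 0.87 ± 0.13 (SE, limma adjusted p = 4.01e-06). These 4 kept their direction and passed under median scaling, quantile normalization and normexp background correction. Atp5g1 (-2.29), Ndufa4 (-1.71) and Cox6b1 (-1.56) were lower in WAT and also kept theirs. Cox4i1, Cox6a1, Cox8a, Atp5g2 and Atp5g3, all lower in WAT by this scaling, changed sign under quantile normalization, Atp5g2 to a value near 0.

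Some genes that feed the chain were higher in sg/sg WAT too. The list counts here and below were not tested against the share of all probes. That share was 12.8% higher and 9.14% lower in WAT, or 14.4% and 9.45% with 1 probe per gene. Without sg/sg replicate 4 it was 18.6% and 12.5%. Of 13 measured citric acid cycle genes outside complex II, 5 were higher and 0 lower, with a median log2 fold change of 0.37 (6 higher, 0 lower and 0.30 without sg/sg replicate 4). The smallest p was that of Suclg2, a subunit of succinyl-CoA ligase, with 1.06, 0.98, 0.86, 0.66 and 0.68 in sg/sg WAT, against 0.13, -0.14, 0.26, 0.29 and 0.13 in WT WAT. All sg/sg arrays were above all WT arrays, with a log2 fold change of 0.71 ± 0.12 (SE, limma adjusted p = 0.00306). Dlst, of the oxoglutarate dehydrogenase complex, was at 0.51 ± 0.15 (SE, limma adjusted p = 0.0345). Of 11 genes of pyruvate import and pyruvate dehydrogenase, 5 were higher and 0 lower (median 0.43, or 0.23 without sg/sg replicate 4, with the same count). They included the pyruvate dehydrogenase subunit Pdhb, at 0.63 ± 0.15 (SE, limma adjusted p = 0.0165), and its inhibitory kinases Pdk2, at 0.87 ± 0.15 (SE, limma adjusted p = 0.00372), and Pdk1, at 1.02 ± 0.23 (SE, limma adjusted p = 0.0125).

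Of 22 assembly factors 4 were higher and 0 lower (median 0.20), among them Surf1, needed to assemble complex IV, at 0.34 ± 0.08 (SE, limma adjusted p = 0.0144), the complex IV copper factor Cox11 at 0.42 ± 0.12 (SE, limma adjusted p = 0.0287), and Ecsit, of complex I assembly, at 0.59 ± 0.17 (SE, limma adjusted p = 0.0356). Coenzyme Q synthesis had 2 of 10 higher and 0 lower (0.22), Coq4 at 0.55 ± 0.09 (SE, limma adjusted p = 0.00245) and Coq5 at 0.35 ± 0.10 (SE, limma adjusted p = 0.0332). Mitochondrial ribosomal proteins had 10 of 78 higher (0.14), close to the share of all probes (12.8%). Of these proteins 0 were lower, against 9.14% of all probes. The 18 genes listed under protein import and mitochondrial mass, among them Tomm20, Vdac1, Hspd1, Mfn2 and Opa1, had 0 higher and 0 lower in limma. Their median was 0.05, and mitochondrial mass itself was not measured. A list of carriers and coupling proteins held 8 measured genes: Slc25a3, Slc25a4, Slc25a5, Ucp2, Ucp3, Ckmt1, Atpif1 and Atp5md. Atp5md is not among the 81 subunit genes. Of these 8 genes, 0 were higher and 2 lower (0.16). These were Ucp2, an inner membrane carrier abundant in macrophages, at -1.43 ± 0.28 (SE, limma adjusted p = 0.00638), and Atpif1, the inhibitor of the ATP synthase, at -0.50 ± 0.15 (SE, limma adjusted p = 0.0324). Without sg/sg replicate 4 the medians of these lists were smaller: 0.11 for assembly factors, 0.04 for ribosomal proteins and 0.03 for carriers. The counts without it were 6 higher and 0 lower for assembly factors, 3 and 0 for coenzyme Q, 12 and 1 for ribosomal proteins, 1 and 1 for import and 1 and 2 for carriers. Among the sg/sg WAT arrays, replicate 4 was the highest for 71 and the lowest for 3 of the 78 ribosomal protein genes.

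Regulators of mitochondrial gene expression included large changes. Of 17 measured in WAT, 5 were higher and 1 lower (median 0.24), or 7 and 1 (0.17) without sg/sg replicate 4. Ppargc1a, which encodes the coactivator PGC-1α, was 0.11, 0.27, -0.02, 0.03 and -0.25 in sg/sg WAT, against -2.06, -1.03, -1.68, -1.16 and -1.83 in WT WAT. The groups were fully apart, with a log2 fold change of 1.58 ± 0.20 (SE, limma adjusted p = 0.00119), and sg/sg replicate 4 lay amid its group. Its relative Ppargc1b was 0.69, 1.13, 0.72, 1.07 and 0.57 in sg/sg WAT, against -0.55, -0.51, -0.07, -0.24 and -0.72 in WT WAT. The log2 fold change was 1.25 ± 0.16 (SE, limma adjusted p = 0.00114), again without overlap. Polg2, the accessory subunit of the mitochondrial DNA polymerase, was at 0.56 ± 0.12 (SE, limma adjusted p = 0.00879). The gene that was lower, Esrrg, a nuclear receptor partner of PGC-1, was named after its value was seen and was at -0.87 ± 0.22 (SE, limma adjusted p = 0.0183). In liver Ppargc1a did not pass (-0.00, adjusted p = 0.991), and Ppargc1b was lower, at -0.49 ± 0.14 (SE, limma adjusted p = 0.0455).

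**Figure D5:**
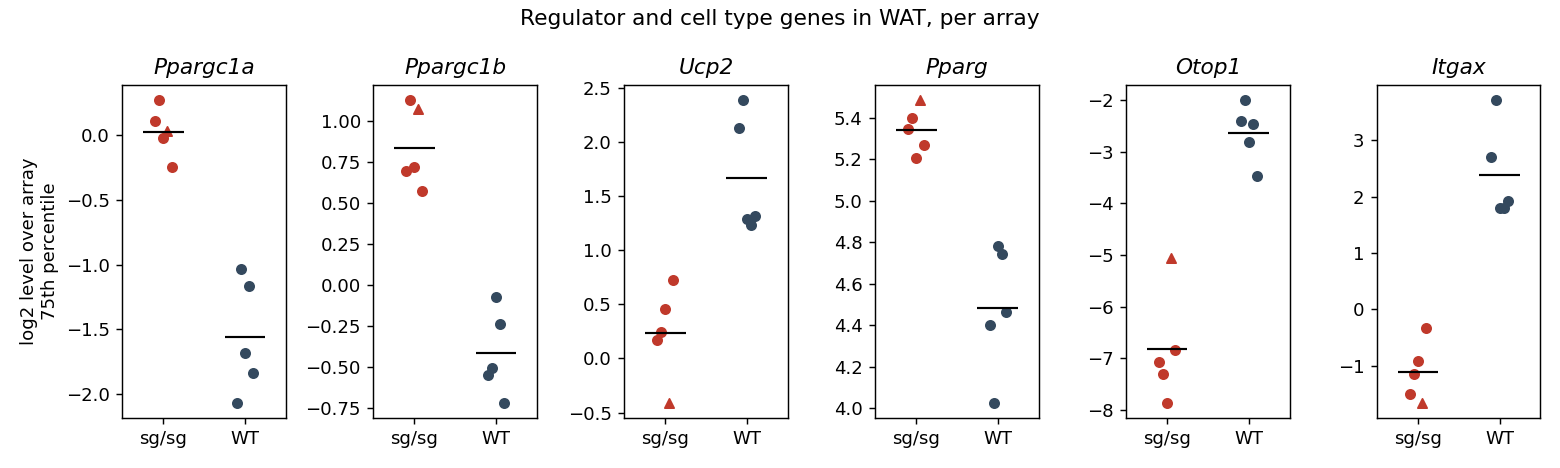
Log2 level relative to the 75th percentile of the array (vertical axis, a separate scale for each gene) of Ppargc1a, Ppargc1b, Ucp2, Pparg, Otop1 and Itgax in WAT, with 1 point per array and a bar at the mean of the 5 sg/sg (left) and the 5 WT arrays. For each of these genes the genotypes do not overlap, and the triangle marks sg/sg replicate 4.

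In liver, where genotype and slide largely coincide, most of the same lists had few calls. Of all liver probes tested, 8.10% were higher and 6.49% lower. Of the 78 mitochondrial ribosomal proteins 11 were lower and 1 higher (median -0.07), with Mrpl16 at -0.62, Mrpl45 at -0.52 and Mrps18a at -0.55 (limma adjusted p = 0.0115, 0.0118 and 0.0163). Citric acid cycle genes had 1 higher and 1 lower of 13 (-0.10), pyruvate dehydrogenase genes 0 and 2 of 11 (-0.13), assembly factors 1 and 2 of 22 (-0.10), coenzyme Q genes 0 and 0 of 9 (-0.24), import genes 0 and 1 of 18 (-0.10), carriers 1 and 0 of 7 (0.02) and regulators 4 and 1 of 16 (0.02). With slide as a fixed block none of these lists had a gene that passed in limma.

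Markers of the cell types in fat also differed between genotypes, and their part in the respiratory chain result was not tested. Of 10 measured adipocyte markers 5 were higher and 1 lower in sg/sg WAT (median 0.55, or 4, 1 and 0.51 without sg/sg replicate 4), led by Pparg at 0.86 ± 0.15 (SE, limma adjusted p = 0.00328), Plin1 at 0.66 ± 0.14 (SE, limma adjusted p = 0.00853) and Slc2a4 at 1.29 ± 0.29 (SE, limma adjusted p = 0.0113). The lower one was Lep, named after its value was seen, at -0.84 ± 0.19 (SE, limma adjusted p = 0.0116). The summed linear level of the 10 markers, in units of the 75th percentile of the array, ran from 1078 to 1484 in sg/sg WAT and from 636 to 1010 in WT WAT. Of 12 macrophage markers 0 were higher and 9 lower (median -0.82, or 0, 8 and -0.73 without that array), led by Itgax at -3.50 ± 0.40 (SE, limma adjusted p = 7.68e-04), Mrc1 at -0.74 ± 0.12 (SE, limma adjusted p = 0.00245) and Itgam at -1.30 ± 0.22 (SE, limma adjusted p = 0.00298), with summed levels of 151 to 197 in sg/sg WAT and 186 to 259 in WT WAT. The 7 endothelial markers had 0 higher and 0 lower in limma (0.11; summed levels of 53.2 to 70.8 and 41.1 to 61.2 in sg/sg and WT WAT). The hepatocyte markers had 0 and 0 of 5 (0.17), with summed levels of 0.994 to 3.71 in sg/sg WAT and 0.260 to 5.53 in WT WAT. Among the sg/sg WAT arrays, replicate 4 was the highest for 7 and the lowest for 2 of the 10 adipocyte markers. It was the lowest for 10 and the highest for 0 of the 12 macrophage markers. Of the 7 endothelial markers it was the highest for 5 and the lowest for 2.

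By their calls, brown and beige fat markers gave no shared direction, with 2 higher and 1 lower of 9 (median -0.05). Ppargc1a, 1 of the higher genes, is also counted among the regulators above. Summed levels were 6.19 to 10.8 in sg/sg WAT and 4.24 to 6.02 in WT WAT, without overlap. In such sums the brightest probes weigh most. Cidea, a lipid droplet protein of brown fat, was at 1.31 ± 0.21 (SE, limma adjusted p = 0.00260), and Otop1, a proton channel, at -4.19 ± 0.48 (SE, limma adjusted p = 7.70e-04). Ucp1 was dim and did not pass, at -2.74, -3.32, -4.69, -3.09 and -3.76 in sg/sg WAT, against -4.74, -2.02, -6.12, -4.83 and -3.74 in WT WAT, with a log2 fold change of 0.77 ± 0.68 (SE, limma adjusted p = 0.461). The array of sg/sg replicate 4, on which Cox8b and Cox7a1 were highest, was the highest sg/sg array for 4 of the 9 genes. Skeletal muscle markers had 1 higher and 1 lower of 12 (0.04), with summed levels of 18.4 to 22.6 in sg/sg WAT and 7.75 to 14.2 in WT WAT. Myh1, a fast myosin, was at 0.90 ± 0.19 (SE, limma adjusted p = 0.00988), and Pvalb, parvalbumin, at -4.66 ± 0.45 (SE, limma adjusted p = 4.96e-04). The brightest of the list, Myl1, a myosin light chain, at 0.59 ± 0.20 (SE, limma adjusted p = 0.0556), and Acta1, skeletal muscle actin, at 1.44 ± 0.54 (SE, limma adjusted p = 0.0811), did not pass. Without sg/sg replicate 4 the brown and beige list had 2 higher and 3 lower (median -0.23) and the muscle list 2 higher and 2 lower. The defining muscle gene Ckm was near background in both genotypes, on 3 of 5 arrays each well above it. WT replicate 2, the WT array with the highest Cox6a2, was the highest WT array for 7 of the 9 brown and beige genes. For the 12 muscle genes it was the highest WT array for 2 and the lowest for 5. It was also the lowest WT array for all 10 adipocyte markers. Among the 12 macrophage markers it was the highest WT array for 8 and the lowest for 2. The part of these cell types in the Cox6a2 result was not tested.

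Promoters of the subunit genes were also described. Sequences from 250 bases before to 50 after the start were taken from RefSeq (build GRCm38.p6), where 66 of the 81 subunit genes had an entry, and motifs were searched on both strands. In all 10 letterings of the motifs of 5 factors were tried, and the shares below describe letters only. NRF1 is a known activator of respiratory genes. Its motif, first searched as a strict palindrome, was found in 5 of 66 genes (7.58%), against 1.07% of all 27025 genes with a promoter entry, and in 0 of the 14 genes called higher in WAT that had an entry. A middle base was then left free, a looser form chosen after matches in these promoters had been seen. The looser form was in 17 genes (25.8%), against 5.19% of all genes, and in 2 of the 14 (Ndufa5 and Sdha).

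For GABP and other ETS factors, CCGGAAG was in 16 genes (24.2%, against 9.93% of all genes) and the longer CCGGAAGT in 5 (7.58%, against 4.31%). The YY1 motif was in 5 (7.58%, against 0.995%) and the motif of oestrogen-related receptors, TCAAGGTCA, in 2 (3.03%, against 0.466%). Of the 14 genes called higher, CCGGAAG was in Cox8a and Sdhb and the YY1 motif in Ndufa9 and Ndufs7. The ROR response element, in a form that ends in AGGTCA and one that ends in GGGTCA, was in 0 of 66, against 0.259% and 0.255% of all genes. With a further letter left free both were again in 0, against 0.829% and 1.07%. This says only that these letters are not in these windows. The ROR and oestrogen-related receptor motifs share the letters GGTCA, and no binding was measured.

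The upstream stretch of Sdha (chr13:74350241-74350373, strand minus), the higher gene with the smallest p, is printed because it holds the looser NRF1 form 3 times. That of Ndufa5 (chr6:24527691-24527751, strand minus) holds the looser form, in another gene that passed in WAT. That of Cox6a1 (chr5:115349076-115349155, strand minus) holds the first, stricter form, in a gene that did not pass. That of Atp5g3 (chr2:73911334-73911413, strand minus), which did not pass either, shows the oestrogen-related receptor motif in reverse orientation. All are written 5′ to 3′ on the strand of the gene, with the motifs in capitals.
Sdha: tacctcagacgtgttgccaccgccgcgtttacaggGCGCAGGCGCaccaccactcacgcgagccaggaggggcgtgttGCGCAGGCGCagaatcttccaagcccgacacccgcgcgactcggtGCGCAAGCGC
Ndufa5: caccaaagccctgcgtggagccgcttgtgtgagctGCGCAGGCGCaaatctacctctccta
Cox6a1: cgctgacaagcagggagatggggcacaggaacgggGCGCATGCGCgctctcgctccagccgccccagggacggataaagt
Atp5g3: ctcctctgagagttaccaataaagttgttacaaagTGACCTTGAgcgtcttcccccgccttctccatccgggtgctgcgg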

How the data were processed

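RNA of 20 samples was hybridised to 1-colour Agilent arrays, 5 per genotype and tissue. The authors deposited scanner output whose processed signal, an intensity already corrected for background, was made with Agilent Feature Extraction 9.5 (per the submitters' processing notes). The deposited value table equalled these intensities. Control spots and outlier spots were left out, spots of a probe averaged, and log2 intensity taken relative to the 75th percentile of the array. Probes well above background on at least 4 of 10 arrays and missing on at most 2 were tested with limma 3.58.1 in R 4.3.3, with Benjamini-Hochberg adjustment over all probes and a threshold of 0.05. The number of arrays limits the precision. Probe positions are those of the files (build mm7); RefSeq gave symbols for 103 of the 117 probes.

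Values in every sample are given for the 6 called genes of smallest p per direction and tissue, isoform families, the 6 smallest interaction p and probes that disagree; other genes by counts and the extremes of each complex; lists by counts and up to 3 genes of smallest p, of which 1 is not reported here. Members, the 14 gene lists and the tests were chosen with earlier results of these data known. The comparison of 3′ with 5′ probes, the promoter letters, and the fits without the 3 genes that are not subunits or, for the lists, without sg/sg WAT replicate 4 were added after the data were seen. The fit was checked on simulated data. Alternatives were other scalings, background correction, filters, 1 probe per gene, slide and replicate blocks, trended and robust variance, and leaving out each array. Whether liver and WAT samples came from the same mice is not stated. Correlations of same-numbered deviations had both signs, which gave no sign of pairing but cannot exclude it. The main fits took all arrays as independent. With a replicate block, 21 interaction terms passed above 0 and 2 below.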

Additional observations from a re-analysis of the deposited data

Results flagged for a closer look

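Single arrays stood far from the other 4 of their group in 22 of 160 groups of values tested, where chance gives about 1 in 20 per group. The groups share the same arrays, and some are medians over the same genes, so the flags are not independent and cannot be weighed against that rate. Of the 22, 18 were sg/sg WAT replicate 4, the array with the lowest detection and with 3′ probes above 5′ probes, and in each of these it was the highest. Its log2 level was 4.95 for Ndufs7, 5.15 for Ndufs4, 5.35 for Ndufc1 and 6.13 for Ndufa4. For complex IV genes it was 2.56 for Cox6b1, 5.75 for Cox7a2, 7.45 for Cox8a and 4.10 for Cox8b. It was 3.66 for Atp5g1, 5.40 for Atp5g2, 5.75 for the bright Atp5f1 probe, 7.16 for Atp5b and 6.19 for Cycs. The medians of that array relative to the WT mean were 0.95 over all subunits, 0.99 for complex I, 0.93 for cytochrome c, 1.09 for complex IV and 0.92 for complex V. The part of RNA quality in these values was not tested.

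The other 4 were WT WAT replicate 5, low for Ndufs7 at 3.67, sg/sg liver replicate 4, high for Atp5g1 at 6.17 and for the complex II median at -0.029, and WT liver replicate 5, which was at 6.83 for the bright Ndufb8 probe.

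The genotype effect differed between WAT and liver by the interaction test (limma, adjusted over all probes) for 14 of the probes whose values are given. The WAT effect minus the liver effect was 0.85 and 0.58 for the bright and the dimmer Sdha probe, 0.70 for Sdhb, 0.51 for Ndufa9 and 0.46 for Ndufv1. It was 0.63 for the bright Ndufs6 probe, 0.50 for a second one, 0.61 for Ndufv2 and 0.68 for Uqcrc2. In the ATP synthase it was 1.19 for the dim Atp5f1 probe, 0.45 for Atp5b and 0.42 for Atp5a1. It was below 0 for Cox6a2, at -1.71, and for the dim Ndufb8 probe, at -0.49. In liver, genotype and slide are largely confounded, and with slide as a fixed block 2 of the 113 probes passed.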

How the results depend on the processing

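The median shift in WAT stayed above 0 under every alternative run, whereas the counts of calls did not hold. Higher probes in WAT (23) came to 6 with median scaling (5.31%, against 9.19% of all probes), 35 with normexp (31.0% against 11.4%), 15 with no filter on dim probes (12.8% against 8.62%), 6 with the replicate block (5.31% against 7.41%), 0 within each slide, and 9 to 38 leaving out 1 array. In 5 of the 10 fits that left out 1 array the share of higher probes was below that of all probes. Lower probes in WAT (1) came to 0 within each slide and 1 to 1 leaving out 1 array. Over all WAT probes the replicate block called 4488, fits within slides 0 (4786, 5080 and 4312 at an unadjusted p under 0.05 in limma), and leaving out 1 array 5039 to 10041. In liver the higher probe (1) came to 0 with no filter, 1 probe per gene, the slide block, slide 2 alone and the replicate block, to 2 with detection on all arrays, and to 0 to 2 leaving out 1 array. Lower liver probes (11) came to 17 with median scaling, 1 with no filter, 7 with 1 probe per gene, 6 with slide as a random block, 0 with slide as a fixed block, slide 2 alone or the replicate block, and 1 to 10 leaving out 1 array. The liver median moved to -0.11 with median scaling and -0.10 with the slide block or slide 2 alone. All liver calls came to 1245 with no filter, 3 with the slide block, 0 in slide 2 (1965 at an unadjusted p under 0.05 in limma), 1658 with the replicate block and 1158 to 4106 leaving out 1 array. Interaction terms above 0 (23) came to 36 with normexp, 2 with the slide block and 17 to 33 leaving out 1 array, and those below 0 (2) to 1 with median scaling or 1 probe per gene, 0 with the slide block and 1 to 3 leaving out 1 array.

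Between tissues, higher probes (9) came to 25 with quantile normalization, 23 with normexp, 5 with 1 probe per gene and 8 to 9 leaving out 1 array, and lower probes (95) to 56, 58 and 95 to 95. Under quantile normalization and under normexp the tissue difference changed sign, to 0.48 and 0.53 for Cox4i1, 0.47 and 0.60 for Cox6a1 and 0.75 and 0.84 for Cox8a. For Atp5g2 it came to 0.0095 and 0.16 and for Atp5g3 to 0.26 and 0.043, of which 0.0095 and 0.043 are close to no difference. Differences between tissues are for this reason given gene by gene only for isoform families, and otherwise as counts. Of the called genes whose values were recomputed, none reversed in WAT, liver or the interaction. However, Sdhb in WAT lost its call in 17 of 24 settings, against 3 of 24 for Sdha, Ndufa9, Ndufs7 and Cox6a2 and 4 of 24 for Ndufv1. Other WAT calls were also often lost: Cox8a and the bright Ndufb8 probe in 14 of 24, Atp5b in 12 and Cox4i1 in 11. The dimmer Atp5a1 probe lost its call in 15 of 23. In liver, Cox6a2 lost its call in 14 of 22 settings and Ndufv2 and the brighter Ndufc1 probe in 12 of 22, against 6 of 22 for Ndufs4. Uqcrc2 lost its call in 14 of 24 settings in WAT and in 16 of 22 in liver. The cause of these changes was not tested.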
